A study of Homo sapiens with 18 samples.

Results

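The genes RARG, VKORC1, MYADM, MTMR2, CPD and CLGN are 6 of the 39496 genes measured. They were selected on measured values, as well expressed genes with some of the largest differences between 2 siRNAs against ACAT1, with the same sign in both cell lines. The differences between siACAT1-2 and siACAT1-1 were thus used in the choice, and they are given as a description with no test. RNA sequencing was done on 18 libraries of UM-UC-3 and T24, established human bladder cancer cell lines labelled as wild type. Cells of each line received a negative control siRNA (siNC), siACAT1-1 or siACAT1-2, which made 6 groups of 3 libraries each, numbered as biological replicates of independent experiments. The control was itself a transfected siRNA, so no untransfected cells enter any comparison.

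A small interfering RNA is a short double-stranded RNA whose guide strand pairs with a messenger RNA and leads to its cleavage. The first bases of a guide can also pair with short sites in the 3′ UTRs of other messenger RNAs, as a microRNA does, and siRNAs of different sequence share the intended target but not these sites. ACAT1 encodes a mitochondrial acetyl-CoA acetyltransferase that acts in ketone body and isoleucine metabolism. The 6 genes have no common pathway. RARG is a nuclear receptor for retinoic acid. VKORC1 is the vitamin K epoxide reductase of the endoplasmic reticulum and the target of warfarin. MYADM is a membrane protein with MARVEL domains. MTMR2 is a myotubularin phosphatase that removes phosphate from phosphoinositides, CPD is a membrane-bound carboxypeptidase of the trans-Golgi network, and CLGN (calmegin) is a chaperone related to calnexin that is best known from the testis.

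Short sites were read in these genes because siRNAs act by base pairing. The 7-base sequence CTAGCAA, which is part of the ACAT1 messenger RNA, was found in the 3′ UTRs of MTMR2, CPD and CLGN, and in the 3′ UTR of none of RARG, VKORC1 and MYADM. How this 7-mer was singled out among all those of ACAT1 is described after the values. It was picked on the same difference between the siRNAs, in the same libraries, that splits these genes into a low and a high set. The split is thus a description and was not tested. These windows, read 5′ to 3′ along the transcript, hold 29 bases each on GRCh38, with the 7-mer in capitals.
MTMR2: catttaagtggCTAGCAAatcagtaatta
CPD: gagagagagatCTAGCAAaagctaaaact
CLGN: gtttctaatatCTAGCAAcattatattct
ACAT1: gtctggttgtaCTAGCAAacattaaaatg
The MTMR2 window lies at chr11:95833757-95833785 on the minus strand, the CPD window at chr17:30465548-30465576 on the plus strand and the CLGN window at chr4:140389102-140389130 on the minus strand. The ACAT1 window lies in the coding sequence, at chr11:108146266-108146294 on the plus strand. The run of bases shared with the ACAT1 window across the 7-mer was 8 bases in MTMR2, 8 in CPD and 7 in CLGN.

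ACAT1 was measured first, to check the labels. Its RPKM (reads scaled to exon length and to all counted reads) was 92.0% to 95.3% below the siNC mean in every group that received an siRNA against it. Over both siRNAs and cell lines, ACAT1 fell by 4.09 ± 0.13 on the log2 scale (SE, edgeR quasi-likelihood test, adjusted p = 2.1e-12). ACAT1 was also lower with siACAT1-2 than with siACAT1-1, at -0.62 ± 0.15 on the log2 scale (adjusted p = 0.0340 in the same fit). The libraries held between 25163490 and 34417230 counted reads. The UM-UC-3 libraries numbered 3 and the T24 libraries numbered 2 were taken to stand apart within their cell line, which was not tested. Values without them are given where they differ. Of 15 measured urothelial and epithelial markers, 3 reached a median of 1 RPKM in the groups of UM-UC-3 cells and 5 to 7 in those of T24 cells, and CDH1 had a median of 0 in both lines. Markers of endothelial cells (0 of 3) stayed under that level, COL1A1 was the 1 fibroblast marker of 4 above it in each line, and CD68 was the 1 immune marker of 4 above it, while PTPRC and CD3E had a median of 0.

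The difference between the siRNAs had the same sign in both cell lines for all 6 genes, as their choice requires. RARG, VKORC1 and MYADM were higher with siACAT1-2 than with siACAT1-1, and MTMR2, CPD and CLGN were lower. In the fit of all 18 libraries, siACAT1-2 minus siACAT1-1 for RARG was 1.04 ± 0.32 (UM-UC-3) and 1.70 ± 0.33 (T24) (log2 fold change ± SE). It was 1.38 ± 0.29 and 1.30 ± 0.29 for VKORC1, and 0.87 ± 0.27 and 1.43 ± 0.27 for MYADM, in the same order of cell lines. Taken over both lines, the 3 genes of the other direction had larger differences, at -2.33, -1.88 and -1.65 for MTMR2, CPD and CLGN against 1.37, 1.34 and 1.15 for RARG, VKORC1 and MYADM. MTMR2 differed by -1.78 ± 0.20 and -2.88 ± 0.20, CPD by -1.56 ± 0.22 and -2.20 ± 0.22, and CLGN by -1.81 ± 0.46 and -1.50 ± 0.45. Among all 20144 genes tested, 2.56% differed between the siRNAs at an adjusted p under 0.05 over both cell lines (1.18% higher and 1.38% lower with siACAT1-2), and 20.6% with the replicate number as a block. The sign of the difference did not change for any of the 6 genes in 462 values from other settings. Those values refit the same libraries, and the choice of the genes used that sign, so nothing is read from this.

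Ordered by the smaller of the differences in the 2 cell lines, among genes with a mean of at least 250 counted reads (a limit chosen after the values were seen), MTMR2, CPD and CLGN took ranks 1, 2 and 3 of the 3390 genes lower with siACAT1-2 in both lines. SLC7A11 stood just outside them, at -1.48 (UM-UC-3) and -1.52 (T24). Among genes with a mean of at least 5 RPKM, a limit that of the 6 genes holds CLGN alone, CLGN came first of 2178 and SLC7A11 next. On the other side, with the limit on counts, VKORC1, RARG and MYADM took ranks 3, 9 and 15 of 3029, and CHGB (1.43 and 1.81) came first. By level, CLGN stood at the 96.4th percentile of mean RPKM among tested genes, while the other 5 stood between the 43.2nd (CPD) and the 68.3rd (VKORC1).

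**Figure D1:**
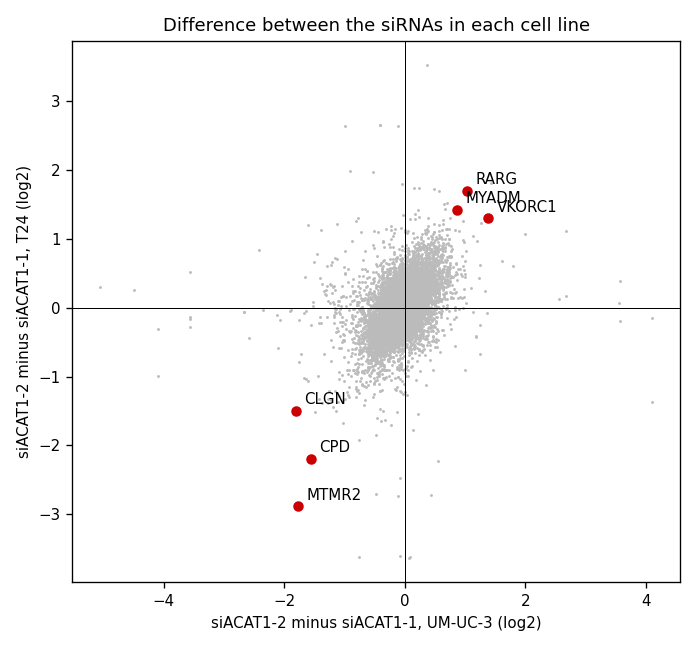
Difference between siACAT1-2 and siACAT1-1 in UM-UC-3 (horizontal axis, log2) and T24 (vertical axis, log2) for the 9410 genes with a mean of at least 250 counted reads (grey points), with the 6 chosen genes in red. RARG, VKORC1 and MYADM lie at the upper right and MTMR2, CPD and CLGN at the lower left, which is how they were chosen.

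The comparison with siNC shows which siRNA each gene followed. RARG, VKORC1 and MYADM were low with siACAT1-1 in both cell lines, and MTMR2, CPD and CLGN were low with siACAT1-2. Both siRNAs of a cell line were compared with the same 3 siNC libraries, and the siRNA libraries are those that chose the genes, so these values are also given with no test.

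RARG (chromosome 12, 53210567 to 53232980, minus strand) was measured at 3.42, 4.29 and 4.09 RPKM in the siNC libraries of UM-UC-3 cells, numbered 1 to 3. With siACAT1-1 it was 1.89, 2.36 and 1.95 RPKM, and with siACAT1-2 it was 4.79, 3.92 and 4.44 RPKM. All 3 siACAT1-1 libraries lay below every other UM-UC-3 library, and the siACAT1-2 libraries overlapped siNC. In T24 cells RARG was 2.17, 1.20 and 2.77 RPKM with siNC, 0.634, 0.841 and 1.02 RPKM with siACAT1-1, and 2.45, 1.48 and 4.04 RPKM with siACAT1-2. The T24 libraries numbered 2 held the lowest siNC and siACAT1-2 values, and the siACAT1-1 libraries again lay below all others. Against siNC, RARG with siACAT1-1 differed by -0.92 ± 0.32 (UM-UC-3) and -1.30 ± 0.33 (T24). With siACAT1-2 it differed by 0.12 ± 0.32 and 0.39 ± 0.32, the former within 1 SE of 0 and the latter past it.

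VKORC1 (chromosome 16, 31090842 to 31095980, minus strand) was measured at 4.67, 4.20 and 4.48 RPKM with siNC in UM-UC-3 cells. It was 1.36, 1.99 and 1.38 RPKM with siACAT1-1 and 5.26, 4.52 and 2.93 RPKM with siACAT1-2. The siACAT1-1 libraries were the lowest, and 1 siACAT1-2 library, number 3, lay between them and siNC. In T24 cells it was 6.86, 8.06 and 8.43 RPKM with siNC, 2.53, 5.18 and 2.00 RPKM with siACAT1-1, and 7.35, 9.12 and 7.23 RPKM with siACAT1-2. Library 2 of siACAT1-1 was the highest of its group but stayed below every siNC library. The differences from siNC with siACAT1-1 were -1.49 ± 0.29 (UM-UC-3) and -1.26 ± 0.29 (T24). The latter was -1.75 without that library. With siACAT1-2 they were -0.11 ± 0.29 and 0.04 ± 0.28.

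VKORC1 shares 74.5% of its exon bases with other annotated genes, 34.7% with RP11-196G11.1 on the same strand and 58.1% with RP11-196G11.3 on the opposite strand. These 2 neighbours had similar differences from siNC with siACAT1-1, at -1.52 and -1.40 (UM-UC-3) and -1.32 and -1.27 (T24). Reads of VKORC1 and of these genes cannot be told apart over the shared bases, because the strand setting and the treatment of shared reads are not given in the sources used here.

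MYADM (chromosome 19, 53866223 to 53876437, plus strand) was measured at 4.70, 5.02 and 5.18 RPKM with siNC in UM-UC-3 cells. It was 2.11, 3.40 and 2.69 RPKM with siACAT1-1 and 5.16, 5.53 and 4.79 RPKM with siACAT1-2. Here too the siACAT1-1 libraries lay below the others. In T24 cells MYADM was 4.17, 4.86 and 6.76 RPKM with siNC, 2.14, 3.56 and 3.17 RPKM with siACAT1-1, and 8.28, 4.78 and 10.4 RPKM with siACAT1-2. Libraries 1 and 3 of siACAT1-2 in T24 cells were above all siNC libraries, and library 2 was not. The differences from siNC were -0.86 ± 0.27 and -0.82 ± 0.27 with siACAT1-1 (UM-UC-3, then T24) and 0.02 ± 0.27 and 0.61 ± 0.27 with siACAT1-2. AC008440.5, a gene on the opposite strand that covers 11.5% of the exon bases of MYADM, differed by -0.99 and -0.92 with siACAT1-1.

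**Figure D2:**
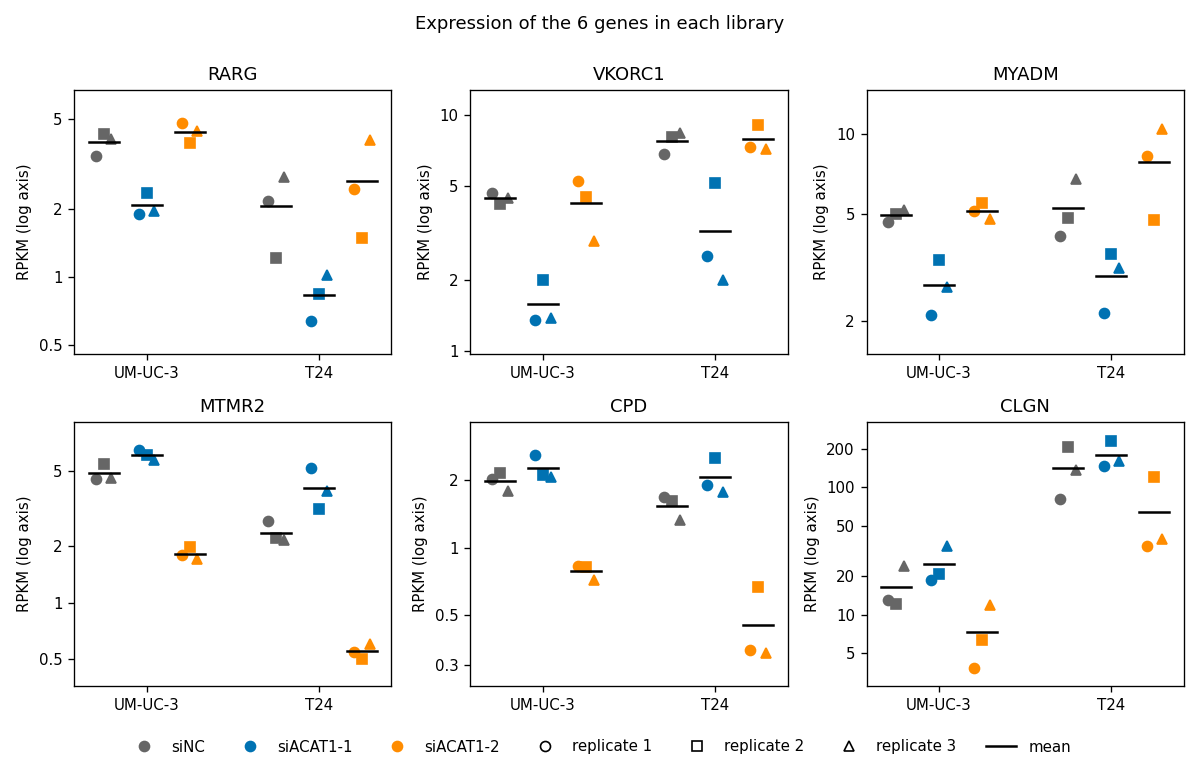
RPKM of each of the 6 genes (log axis) in the 18 libraries, by cell line and siRNA, with the symbol giving the replicate number and the line the mean of 3 libraries. RARG, VKORC1 and MYADM have their lowest libraries with siACAT1-1 (blue) and MTMR2 and CPD with siACAT1-2 (orange), while the siACAT1-2 libraries of CLGN in T24 cells reach into the siNC range.

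MTMR2 (chromosome 11, 95832882 to 95925315, minus strand) was measured at 4.53, 5.44 and 4.60 RPKM with siNC in UM-UC-3 cells. It was 6.48, 6.04 and 5.70 RPKM with siACAT1-1 and 1.78, 1.97 and 1.71 RPKM with siACAT1-2. The 3 groups did not overlap, with siACAT1-2 lowest and siACAT1-1 highest. In T24 cells it was 2.70, 2.20 and 2.14 RPKM with siNC, 5.17, 3.15 and 3.90 RPKM with siACAT1-1, and 0.546, 0.505 and 0.602 RPKM with siACAT1-2. The order of the groups was the same, again with no overlap. Against siNC, MTMR2 differed by -1.46 ± 0.20 and -2.08 ± 0.20 with siACAT1-2, in UM-UC-3 and T24 cells. With siACAT1-1 it differed by 0.32 ± 0.20 and 0.81 ± 0.20, and the T24 value was 0.55 without library 1 of that group.

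CPD (chromosome 17, 30378905 to 30469989, plus strand) was measured at 2.02, 2.16 and 1.79 RPKM with siNC in UM-UC-3 cells. It was 2.60, 2.11 and 2.07 RPKM with siACAT1-1 and 0.827, 0.821 and 0.713 RPKM with siACAT1-2. The siACAT1-2 libraries were far below the rest, and siACAT1-1 overlapped siNC. In T24 cells CPD was 1.68, 1.62 and 1.33 RPKM with siNC, 1.90, 2.52 and 1.76 RPKM with siACAT1-1, and 0.349, 0.669 and 0.337 RPKM with siACAT1-2. In this line all siACAT1-1 libraries lay above siNC and all siACAT1-2 libraries below it. The differences from siNC were -1.38 ± 0.22 and -1.77 ± 0.22 with siACAT1-2, and the T24 value was -2.14 without library 2 of that group. With siACAT1-1 they were 0.18 ± 0.22 and 0.42 ± 0.22.

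CLGN (chromosome 4, 140388455 to 140427968, minus strand) was measured at 13.0, 12.2 and 24.3 RPKM with siNC in UM-UC-3 cells. It was 18.7, 20.9 and 34.8 RPKM with siACAT1-1 and 3.84, 6.31 and 11.9 RPKM with siACAT1-2. Library 3 was the highest of each group, and the siACAT1-2 libraries still lay below siNC. In T24 cells it was 80.5, 208 and 136 RPKM with siNC, 147, 233 and 160 RPKM with siACAT1-1, and 34.6, 120 and 39.4 RPKM with siACAT1-2. Here library 2 was the highest of each group, and in siACAT1-2 it exceeded library 1 of siNC, so those groups overlapped. The differences from siNC were -1.21 ± 0.46 and -1.13 ± 0.45 with siACAT1-2, and the T24 value was -1.88 without library 2 of that group. With siACAT1-1 they were 0.59 ± 0.46 and 0.37 ± 0.45.

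**Figure D3:**
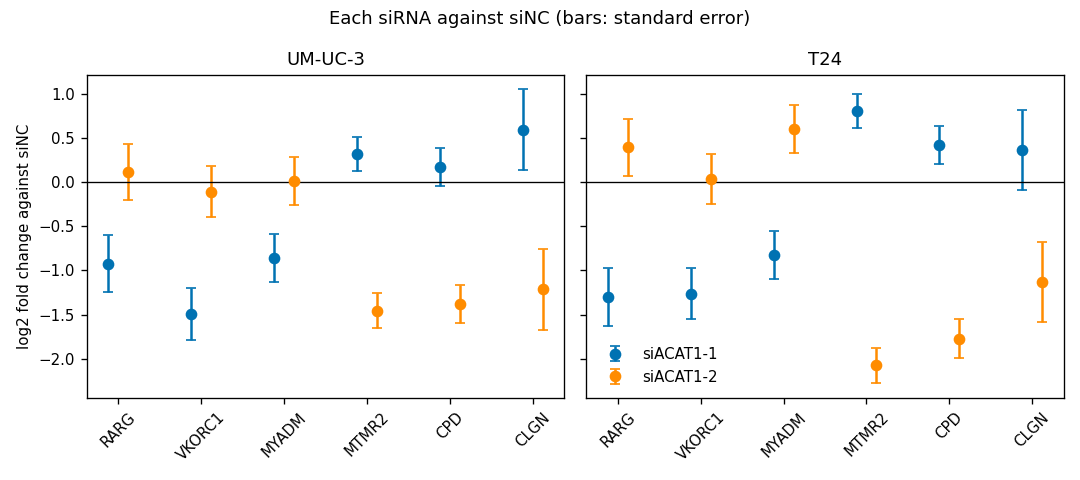
Log2 fold change of each gene against siNC of the same cell line for siACAT1-1 (blue) and siACAT1-2 (orange), with the standard error from the fit of all libraries as bars (n = 3 libraries per group). The lowest values are those of MTMR2 and CPD with siACAT1-2 in T24 cells, at -2.08 and -1.77.

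As a share of the siNC mean, RPKM with siACAT1-1 was 52.6% and 40.5% for RARG, 35.4% and 41.5% for VKORC1 and 55.0% and 56.2% for MYADM, in UM-UC-3 and T24 cells. With siACAT1-2 it was 37.5% and 23.5% for MTMR2, 39.5% and 29.3% for CPD and 44.5% and 45.6% for CLGN. Each gene thus kept a part of its expression under the siRNA that lowered it, and more of it than ACAT1 kept. Libraries of siACAT1-1 lay below all siNC libraries in both cell lines for 3 of the 6 genes, where 1.14% of all tested genes did so. Libraries of siACAT1-2 lay below all siNC libraries in both lines for 2 of the 6, MTMR2 and CPD, where 1.23% of tested genes did, and CLGN did so in UM-UC-3 cells, where 5.86% did. CPD lay above siNC with siACAT1-1 in T24 cells, where 6.87% of tested genes did. MTMR2 was the 1 gene of the 6 whose siACAT1-1 libraries lay above siNC in both lines, against 1.13% of tested genes. The siRNA libraries in these comparisons are those that chose the genes, so nothing is read from the counts.

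Libraries with the same number in a cell line deviated together, so each siRNA library can be set beside the siNC library of its number. In these 6 pairs, siACAT1-1 was lower than siNC in 6 of 6 for RARG, VKORC1 and MYADM, with median log2 ratios of -0.96, -1.57 and -0.95. The siACAT1-2 library was lower than siNC in 6 of 6 for MTMR2, CPD and CLGN, with medians of -1.65, -1.36 and -1.13. CLGN, whose groups overlapped in T24 cells, had ratios between -1.79 and -0.80 in these pairs. With siACAT1-1, MTMR2 and CLGN were higher than siNC in 6 of 6 pairs and CPD in 5 of 6. The ratios of RARG and VKORC1 with siACAT1-1 in T24 cells were smallest in size in pair 2, at -0.52 and -0.64.

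**Figure D4:**
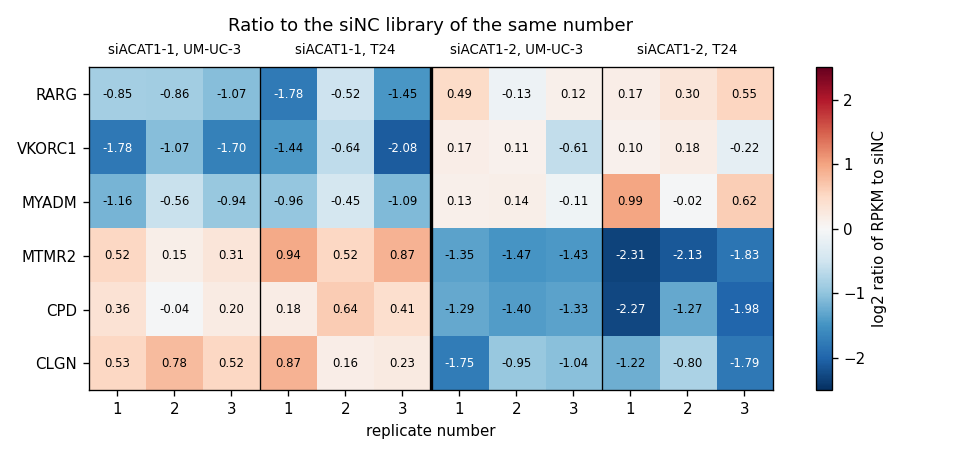
Log2 ratio of RPKM in each siRNA library to the siNC library of the same replicate number and cell line, with blue for lower and red for higher. The upper 3 genes are negative in all 6 columns of siACAT1-1 and the lower 3 genes in all 6 columns of siACAT1-2.

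The mean of both siRNAs against siNC uses a direction that the choice of the genes did not, and it was tested over all 20144 genes. Of these, 0.223% were called, and of the 6 genes 1 was called, MTMR2, at -0.60 ± 0.12 on the log2 scale (edgeR, adjusted p = 0.0493). CPD was at -0.64 ± 0.13 (adjusted p = 0.0557), VKORC1 at -0.70 ± 0.18 (adjusted p = 0.110) and RARG at -0.43 ± 0.20 (adjusted p = 0.439). MYADM was at -0.26 ± 0.17 (adjusted p = 0.611) and CLGN at -0.34 ± 0.28 (adjusted p = 0.716). With the replicate number as a block, 12.4% of genes were called and 5 of the 6, with adjusted p of 5.3e-05 for MTMR2, 8.6e-05 for CPD, 0.0010 for VKORC1, 0.0242 for RARG and 0.0304 for CLGN (edgeR). MYADM had an adjusted p of 0.179 in that fit. The call of MTMR2 was lost in 15 of 18 fits that left out 1 library. The mean joins 1 siRNA with a low value and 1 without in each of these genes. It uses the siRNA libraries that chose the genes, and a large gap between the siRNAs moves it where 1 of them lies near siNC. In MTMR2, siACAT1-1 lay above siNC instead, at 0.56 ± 0.14 over both lines, so its mean joins opposite directions. These calls are thus not read as an effect that both siRNAs share. The effect of both siRNAs did not pass the test of a difference between the cell lines in any of the 6 genes, with differences from -0.31 ± 0.33 (MYADM) to 0.07 ± 0.27 (CPD), and in edgeR 0 genes of all tested did, 517 at an unadjusted p under 0.05. DESeq2 called 1 gene, edgeR with the replicate block 21 and edgeR with no filter on low counts 29. The mean of siRNAs that differ can hide a difference between the lines, so nothing is read from this for the 6 genes. The difference siACAT1-2 minus siACAT1-1, taken as UM-UC-3 minus T24, was 1.11 ± 0.28 for MTMR2, 0.64 ± 0.31 for CPD and -0.31 ± 0.65 for CLGN. It was -0.66 ± 0.46 for RARG, 0.08 ± 0.41 for VKORC1 and -0.55 ± 0.38 for MYADM, and it was not tested.

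The difference between the lines in siNC cells was not used in the choice, although the siNC libraries enter the level by which genes counted as well expressed. CLGN was the gene that differed most between the lines, with 16.5 ± 6.79 RPKM in UM-UC-3 against 142 ± 63.9 RPKM in T24 (SD, n = 3), a difference of -3.04 ± 0.46 on the log2 scale (UM-UC-3 minus T24, edgeR, adjusted p = 1.0e-04). VKORC1 was also lower in UM-UC-3 cells, at -0.76 ± 0.29 (adjusted p = 0.0404 in edgeR). MTMR2 was higher in UM-UC-3 cells by 1.09 ± 0.20 (adjusted p = 3.0e-04) and RARG by 0.98 ± 0.32 (adjusted p = 0.0217). CPD differed by 0.41 ± 0.22 (adjusted p = 0.136 in edgeR, 0.0170 with the replicate block), and MYADM by -0.03 ± 0.27 (adjusted p = 0.932). Thus 4 of the 6 genes were called, where 44.3% of all tested genes were, and 5 with the block, where 61.7% were. The block takes out the spread between replicate numbers within a line, against which a difference between lines is judged. Its adjusted p-values for this comparison can thus be too small, and nothing is read from them. In 18 fits that left out 1 library each, the call of VKORC1 was lost in 6, with adjusted p up to 0.0979, and that of RARG in 2, with adjusted p up to 0.116 (edgeR). The call of RARG was also lost without the libraries taken to stand apart, at 0.65 (adjusted p = 0.0527 in edgeR).

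Across the 18 libraries, with each cell line centred on its own mean, log2 CPM of the genes low with the same siRNA moved together. Pearson's r was 0.927 between RARG and MYADM, 0.793 between VKORC1 and MYADM and 0.727 between RARG and VKORC1. It was 0.942 between MTMR2 and CPD, 0.795 between CPD and CLGN and 0.713 between MTMR2 and CLGN. Between genes of the 2 sets it lay between -0.741 and -0.476. These values share their libraries, and the choice of the genes fixes their signs. Among 6262 genes (6261 for CLGN) with a mean of at least 5 RPKM, those most like each gene were RPS25 for RARG (r = 0.935), CNOT8 for VKORC1 (0.945), AC008440.5 for MYADM (0.980), CCT2 for MTMR2 (0.944), IPO7 for CPD (0.972) and RP11-530C5.1 for CLGN (0.964). The gene most like MYADM is the one that overlaps it, and how reads over their shared bases were counted is not given in the sources used here.

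The 7-mer shown above was found by going through the 7-mers of the ACAT1 messenger RNA. All 2407 of them occur in the longest annotated 3′ UTR of at least 50 tested genes. For each, the median difference between the siRNAs was taken over the genes that hold it, leaving out ACAT1 and the 6 genes. CTAGCAA had the lowest median, -0.16 over 1035 genes against 0.011 over all 12975, and 67.1% of its genes were lower with siACAT1-2 against 48.4% of all. The next lowest medians were those of TAGCAAA (-0.13) and ACTAGCA (-0.12), which overlap it. Against siNC, the genes with CTAGCAA had a median of -0.08 with siACAT1-2, the lowest of the 2407 7-mers, and 0.08 with siACAT1-1. This lowest place with siACAT1-2 was held in each line (UM-UC-3 -0.10, T24 -0.08). Over whole transcripts, 3′ UTR included, CTAGCAA also had the lowest median difference between the siRNAs, at -0.17 over 1746 genes. CPD holds 1 further site upstream of its 3′ UTR. The 7-mer was picked as the extreme of the same libraries, so its median carries no test.

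CTAGCAA is in 7.14% of 19225 longest 3′ UTRs on this strand. The 3′ UTR of MTMR2 has 2410 bases, that of CPD 5175 and that of CLGN 771, against 1937 for MYADM, 1109 for RARG and 468 for VKORC1 and a median of 1496. Base composition moved with the 2 sets of genes as well. G and C made up 36.0%, 34.9% and 30.0% of the 3′ UTRs of MTMR2, CPD and CLGN, and 58.2%, 53.2% and 48.5% of those of RARG, VKORC1 and MYADM. The part of length and composition in these differences was not tested. The genes ranked near the 6 were among those from which the 7-mer was picked, on the same difference, so their counts describe that choice. Of the 9 genes ranked just after MTMR2, CPD and CLGN, 7 hold the 7-mer (CDK6, CACUL1, RAI14, PAWR, ZDHHC20, THUMPD1 and EDA2R), while SLC7A11 and ASAP1 do not. Of the 8 genes other than VKORC1 and RARG with a 3′ UTR in the table among the first 12 on the other side, 2 hold it, C3orf14 and PRSS12. The 7-mer with the highest median, CGGCGCC (0.11 over 279 genes), is in the 3′ UTR of none of the 6 genes, and no 7-mer is given for RARG, VKORC1 and MYADM. The sequences of the siRNAs were not used here, so whether CTAGCAA pairs with siACAT1-2 was not tested.

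**Figure D5:**
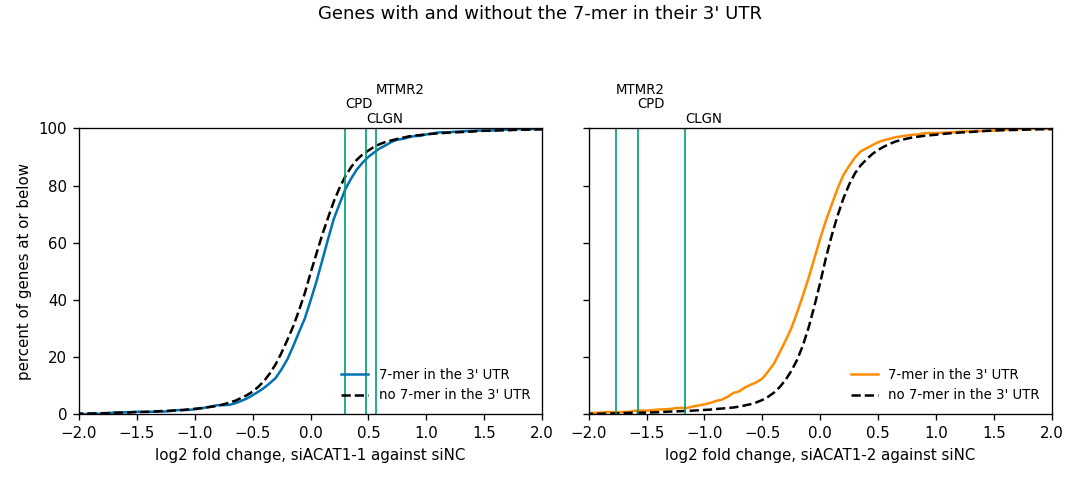
Cumulative percent of tested genes (vertical axis) at or below each log2 fold change against siNC over both cell lines (horizontal axis), for genes with the 7-mer in the 3′ UTR (solid) and without it (dashed), with siACAT1-1 at the left and siACAT1-2 at the right. Green lines mark MTMR2, CPD and CLGN, which are not in the curves. The solid curve lies left of the dashed curve with siACAT1-2 and right of it with siACAT1-1.

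The genes around each of the 6 were read from lists of their pathways. Of 136 listed genes 98 were tested, and 4 were higher and 2 lower with siACAT1-2 than with siACAT1-1 at an adjusted p under 0.05, or 6.12% against 2.56% of all tested genes. With the replicate block it was 31 genes, 31.6% against 20.6%. The lists were chosen with earlier results of these data known, around genes picked on this difference, so nothing is read from these shares.

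Of 19 tested genes of retinoic acid signaling, where retinol is oxidized to the ligand of RARG, 1 rose and 2 fell with siACAT1-2 against siACAT1-1. NCOA3, a coactivator of nuclear receptors, was lower, at -0.88 ± 0.17 (edgeR, adjusted p = 0.0113). It was measured at 5.97 ± 0.606 RPKM with siACAT1-1 in T24 cells against 3.00 ± 0.948 with siNC and 2.54 ± 0.934 with siACAT1-2 (SD, n = 3). RDH11, a retinol dehydrogenase, was lower, at -0.60 ± 0.11 (adjusted p = 0.0071 in edgeR). The retinaldehyde dehydrogenases were split between the lines. ALDH1A1 was at 81.8 ± 6.84 RPKM in siNC cells of UM-UC-3 and 0.065 ± 0.054 in T24, and ALDH1A3 at 0.050 ± 0.029 and 28.1 ± 8.47.

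Of 13 tested genes of the vitamin K cycle, 0 were called between the siRNAs in edgeR, with 1 at an unadjusted p under 0.05 and 1 with the block. VKORC1L1, the paralog of VKORC1, differed by -0.20 ± 0.13 (adjusted p = 0.471). In the mean of both siRNAs against siNC, PROS1, the anticoagulant protein S, rose by 0.75 ± 0.13 (edgeR, adjusted p = 0.0354), and it was the 1 listed gene called in that comparison. No listed gene was called in 14 of 18 fits that left out 1 library.

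Of 18 tested genes with a MARVEL domain, the kind found in MYADM, 2 rose and 0 fell with siACAT1-2 against siACAT1-1. SYP (synaptophysin) was higher by 1.19 ± 0.18 (edgeR, adjusted p = 0.0024) and SYPL1, its paralog, by 0.74 ± 0.14 (adjusted p = 0.0102). Both had their lowest group mean with siACAT1-1 in each line, as MYADM did. In UM-UC-3, mean SYP was 1.89 ± 0.636 RPKM for siNC, 1.16 ± 0.232 for siACAT1-1 and 2.40 ± 0.453 for siACAT1-2 (SD, n = 3). The T24 means were all under 1 RPKM, at 0.494 ± 0.091, 0.206 ± 0.052 and 0.533 ± 0.036 in the same order. The median of the 18 genes was 0.35, against 0.01 over all genes tested. A larger median, 0.39, was that of the carboxypeptidases and convertases, although CPD itself was lower. Medians were 0.19 for retinoic acid signaling, 0.12 for the calnexin cycle, -0.19 for the vitamin K cycle and -0.23 for myotubularins and PI3P turnover. Nothing is read from these medians.

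Of 21 tested myotubularins and genes of PI3P turnover, 0 were called between the siRNAs in edgeR, with 5 at an unadjusted p under 0.05 and 4, all lower, with the block. PIK3C2A, a lipid kinase, was at -0.55 ± 0.14 (adjusted p = 0.0530, 0.0008 with the block) and PIKFYVE, which makes PI(3,5)P2, at -0.49 ± 0.13 (adjusted p = 0.0583, 0.0026 with the block). Of 10 tested carboxypeptidases and proprotein convertases, 0 were called in edgeR, with 3 at an unadjusted p under 0.05 and 3, all higher, with the block. FURIN was at 0.54 ± 0.17 (adjusted p = 0.106, 0.0027 with the block). Of 17 tested genes of the calnexin cycle, 1 rose, EDEM2, which acts in the disposal of misfolded glycoproteins, by 0.69 ± 0.14 (edgeR, adjusted p = 0.0156).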

How the data were processed

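The authors extracted RNA with TRIzol, prepared stranded libraries with unique molecular identifiers and, per the labels' processing notes and methods, used Trimmomatic 0.36, STAR 2.5.3 and featureCounts (Subread 1.5.1) on GRCh38. They deposited raw read counts per gene without normalization, and RPKM values calculated from these counts. The annotation release, strand setting, treatment of multi-mapped reads and identifier collapse are not given in the sources used here. The test on counts was that of edgeR 4.0.16 under R 4.3.3 (TMM, filterByExpr by group, quasi-likelihood test, 1 model of 6 groups), with Benjamini-Hochberg adjustment over 20144 genes. Alternatives were the replicate block, DESeq2 1.42.0, its size factors, no filter, and limma 3.58.1 on log2(RPKM + 1) and log2(RPKM + 0.1). The edgeR fit was tested on simulated data. Those had independent libraries with a fixed spread, so that test does not cover same-numbered libraries that deviate together. The 6 genes and the lists were chosen with earlier results of these data known. Named were the 6 genes and ACAT1, up to 3 genes per list with the largest difference between the siRNAs at a mean of 1 RPKM or more, the genes most like each of the 6 at 5 RPKM or more, and those next to them in the order of differences. RDH11, PROS1, the overlapping genes and the holders of the 7-mer were named after their values were seen. Some listed genes are counted but not reported here by name. Transcripts came from GENCODE release 44 on GRCh38, and 12982 of 20144 tested genes matched a 3′ UTR by name.

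Same-numbered libraries of a cell line deviated together in all 9 pairs of each line, with correlations of 0.115 to 0.576 in UM-UC-3 (median 0.433) and 0.356 to 0.686 in T24 (median 0.524). The numbers were thus taken to pair the samples in the ratios to siNC and in the replicate block. The main fit, which gave the SEs and all p-values not marked as from another fit, did not pair them. What a number marks beyond an independent experiment is not stated, and p-values measure the spread between these samples. RPKM fold shares take no account of TMM. Counts limit the precision: the lowest count of the 6 genes was 84.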

Additional observations from a re-analysis of the deposited data

How the results depend on the processing

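No called value and no difference between the siRNAs of the 6 genes changed direction under any alternative, while uncalled values near 0 did, such as the MYADM difference between lines in siNC. The direction of the difference between the siRNAs was part of the choice of the genes. The median of the 7-mers depends on the siRNA. Against siNC, CTAGCAA was at 0.075 with siACAT1-1 and -0.082 with siACAT1-2, and CGGCGCC at -0.017 and 0.081. The replicate block moved the calls most. With it the mean of both siRNAs against siNC was -0.41 for RARG, -0.74 for VKORC1 (UM-UC-3 -0.82, T24 -0.65), -0.65 for CPD (-0.60 and -0.70) and -0.36 for CLGN, all then called in edgeR, as was MTMR2 within each line (-0.57 and -0.64), and CPD between the lines in siNC (0.41). For that difference between lines the block takes out the spread it is judged against, so nothing is read from the call. The block called 4141 genes between the siRNAs against 515 without it, 2500 against 45 for both siRNAs, 21 against 0 for the difference between lines, 5 against 1 of the 6 genes, and 31 and 14 listed genes against 6 and 1. It changed no other call of the 6 genes.

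Log2(RPKM + 1) in limma gave smaller values, as the added 1 does for low genes. The differences between the siRNAs were 0.88 for RARG (0.94 in T24), 1.00 for VKORC1 in UM-UC-3, -1.51 for MTMR2 (-1.33 and -1.69 in UM-UC-3 and T24) and -0.97 for CPD (-0.86 and -1.08). Against siNC they were -0.71 for RARG in T24 and -1.09 for VKORC1 in UM-UC-3 with siACAT1-1, and -1.05 and -1.11 for MTMR2 and -0.74 and -0.81 for CPD with siACAT1-2. MTMR2 over both siRNAs was at -0.32 and, with log2(RPKM + 0.1), at -0.55, not called in either, where 19 genes, 0 of the 6 and 0 listed genes were.

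DESeq2 and no filter on low counts called VKORC1 (-0.70 in both) and CPD (-0.63 and -0.64) over both siRNAs. They called 1298 and 884 genes between the siRNAs, 315 and 383 for both siRNAs, 1 and 29 between the lines, and 3 of the 6 genes each, and DESeq2 called 12 and 4 listed genes. Why the counts of calls moved was not tested.

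Another setting left out the 6 libraries taken to stand apart, chosen after seeing the data. In T24 cells it gave 1.70 for VKORC1 and 1.83 for MYADM between the siRNAs, -1.76 for VKORC1 with siACAT1-1 and -2.13 for CPD with siACAT1-2. Over both siRNAs VKORC1 (-0.77, T24 -0.91) and CPD (-0.76, T24 -0.93) were then called, RARG in siNC (0.65) was not, and 1687, 512 and 2 genes, 3 of the 6, and 15 and 2 listed genes were called.

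Leaving out each library in turn gave ranges. For VKORC1 in T24 they were 1.06 to 1.76 between the siRNAs and -1.75 to -1.02 with siACAT1-1, the larger without library 2 of siACAT1-1. For both siRNAs they were -0.82 to -0.64 for VKORC1, -0.66 to -0.52 for MTMR2 and -0.72 to -0.58 for CPD (-0.86 to -0.56 in T24), with adjusted p of 0.0152 to 0.329, 0.0245 to 0.205 and 0.0103 to 0.213. In T24, MTMR2 with siACAT1-1 ranged from 0.55 to 0.97, CPD from -2.54 to -2.03 between the siRNAs and -2.14 to -1.63 with siACAT1-2, and CLGN from -2.24 to -1.23 and -1.88 to -0.81, the larger without library 2 of siACAT1-2. Between the lines RARG ranged from 0.65 (without T24 siNC library 2) to 1.18 and VKORC1 from -0.81 to -0.73, called in 12 of 18 fits. Genes called ranged from 165 (without UM-UC-3 siACAT1-1 library 1) to 900 (without T24 siACAT1-1 library 2) between the siRNAs, from 6 (without T24 siNC library 1) to 143 (without T24 siNC library 2) for both siRNAs and from 0 to 1 between lines. Of the 6 genes 0 to 3 were called for both siRNAs and 2 to 4 between the lines, and of listed genes 4 to 10 and 0 to 1. Groups held 3 libraries each, and VKORC1 shares exon bases with other genes.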
